A study of Drosophila melanogaster with 2 samples.

Results

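The cytosolic large ribosomal subunit of Drosophila melanogaster is built from ribosomal RNA and the proteins of the RpL genes. Members were chosen by symbol, as every gene of the Ensembl annotation whose symbol starts with RpL, which gave 54 of 18164 genes on the major chromosome arms. They include the stalk genes RpLP0, RpLP1 and RpLP2, the paralog pairs and the genes with "-like" symbols. Earlier results of these data were known when this symbol rule was chosen. The data come from chromatin immunoprecipitation with sequencing (ChIP-seq) of the CG4707 protein in whole embryos aged 0 to 14 h, both sexes pooled, from a fly line stably expressing CG4707 with GFP at its C terminus. The series holds this group alone, with 2 biological replicates numbered 2 and 3, no second condition and no untagged line among the files used here. Which promoter drives the fusion is not stated in the labels used here, and both replicates carry one donor label for the line. A free-text label calls both libraries an input control, while title, assay and antibody fields describe the immunoprecipitation, so they were read as such.

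Some large subunit proteins reach near the peptidyl transferase centre or lie along the tunnel through which the new peptide leaves. Others form the stalk that recruits translation factors. Their genes are among the most actively transcribed in growing cells, and in flies loss of a single copy of many of them gives the Minute phenotype of slow development and short bristles. Many fly ribosomal protein genes start transcription inside a run of pyrimidines, the TCT motif, in place of the usual initiator, and are known to depend on a polymerase II machinery partly of their own.

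The start sites are shown first because the position of the tagged protein on them is the main result. Each line holds 60 bases of the sense strand of the Release 6 (dm6) genome, 40 before the TSS (transcription start site), the TSS base and 19 after it. Capitals mark the start letters, which are CTTTCT or CTTTTT or CTTTCC or CTTTTC, where they begin within 5 bp of the TSS. The first 4 genes had strong peaks, RpL40, RpL35 and RpL15 had regions below the peak threshold, and RpL10Aa and RpL24-like had no pooled region. The first 4 all hold start letters, while 23 of the 41 members with a peak had none at the canonical TSS, the site printed here.
RpL14 (chr3L:8600966-8601025, plus strand): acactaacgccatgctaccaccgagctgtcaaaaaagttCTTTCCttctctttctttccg
RpL8 (chr3L:2587416-2587475, plus strand): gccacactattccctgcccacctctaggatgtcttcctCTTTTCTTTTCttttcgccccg
RpL3 (chr3R:11221854-11221913, plus strand): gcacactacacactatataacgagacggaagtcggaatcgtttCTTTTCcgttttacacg
RpL4 (chr3R:27922781-27922840, plus strand): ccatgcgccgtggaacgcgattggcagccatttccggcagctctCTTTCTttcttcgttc
RpL40 (chr2L:4227659-4227718, plus strand): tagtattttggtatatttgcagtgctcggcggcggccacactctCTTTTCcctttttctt
RpL35 (chrX:5672694-5672753, plus strand): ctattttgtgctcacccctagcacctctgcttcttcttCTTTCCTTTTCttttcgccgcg
RpL15 (chr3L:27267216-27267275, plus strand): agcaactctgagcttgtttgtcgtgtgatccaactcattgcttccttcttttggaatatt
RpL10Aa (chr3R:15037326-15037385, plus strand): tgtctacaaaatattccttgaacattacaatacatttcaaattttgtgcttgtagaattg
RpL24-like (chr3R:11431563-11431622, minus strand): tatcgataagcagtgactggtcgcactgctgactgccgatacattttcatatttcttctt

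Most large subunit genes carried a CG4707-GFP peak on their promoter. A peak is a region of the authors' thresholded list of 3470, and a gene was counted when the peak's summit, its highest point, lay within 500 bp of any annotated TSS. Of 54 members, 41 met this (75.9%, exact 95% interval 62.4 to 86.5), against 10.5% of all annotated genes and 12.0% of protein-coding genes. The 41 members had 41 different peaks, so none was counted through the peak of another member. The peaks stood high in the pooled list, where rank 1 has the highest signal. The strongest 500 of 30000 pooled regions lay at 16 members (29.6%), against 1.91% of all genes, and the strongest 1000 at 28 members (51.9%), against 3.53%. A further 9 members had a region below the threshold, so that 50 of 54 (92.6%) lay near some pooled region, against 43.3% of all genes. All of these are counts beside a background, and no test of the group was made.

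**Figure D1:**
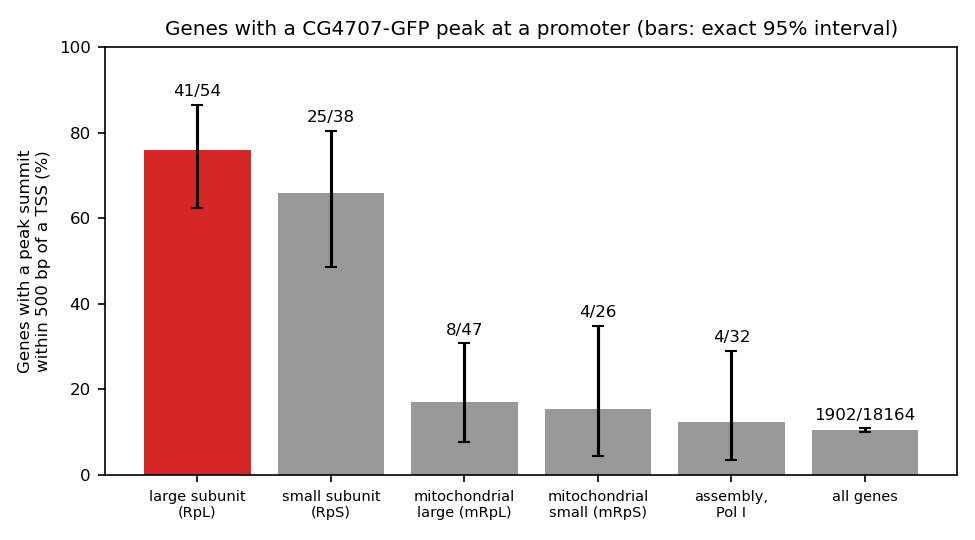
Percent of genes with a peak summit within 500 bp of a TSS (vertical axis) in the large subunit genes, 4 other groups of ribosome-related genes and all annotated genes, with exact 95% intervals that cover counting error only. The large subunit genes stand at 75.9% and the small subunit genes at 65.8%, while the mitochondrial and assembly groups lie between 12.5% and 17.0%, with intervals that reach from 3.51% to 34.9%.

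Both replicates gave nearly the same members. Among the 3470 strongest regions of each replicate alone, 42 members were found in replicate 2, against 10.9% of all genes, and 42 in replicate 3, against 10.3%. In both lists at once there were 40 members, and each of these also had a thresholded peak. The remaining member with a peak, RpL38, ranked 2364 in replicate 2 and 4298 in replicate 3. Over the 41 members with a peak, ranks in the replicates had a Spearman correlation of 0.90, a description across genes that share libraries, and the larger rank was a median of 1.27 times the smaller. The same figures over 1611 other protein-coding genes with a peak were 0.77 and 1.41. Summits of the replicates lay a median of 9 bp apart at members and 23 bp at the other genes, and within 50 bp of each other at 40 of 41 members (97.6%) and 76.7% of the other genes. The exception was RpL27, whose summits lay 58 bp apart. Peaks of the other genes were weaker, with a median rank of 1637 over 1634 genes, against 529 at members. The comparisons of replicate agreement were not matched for rank. The depth of the libraries is unknown, since only region lists were used.

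**Figure D2:**
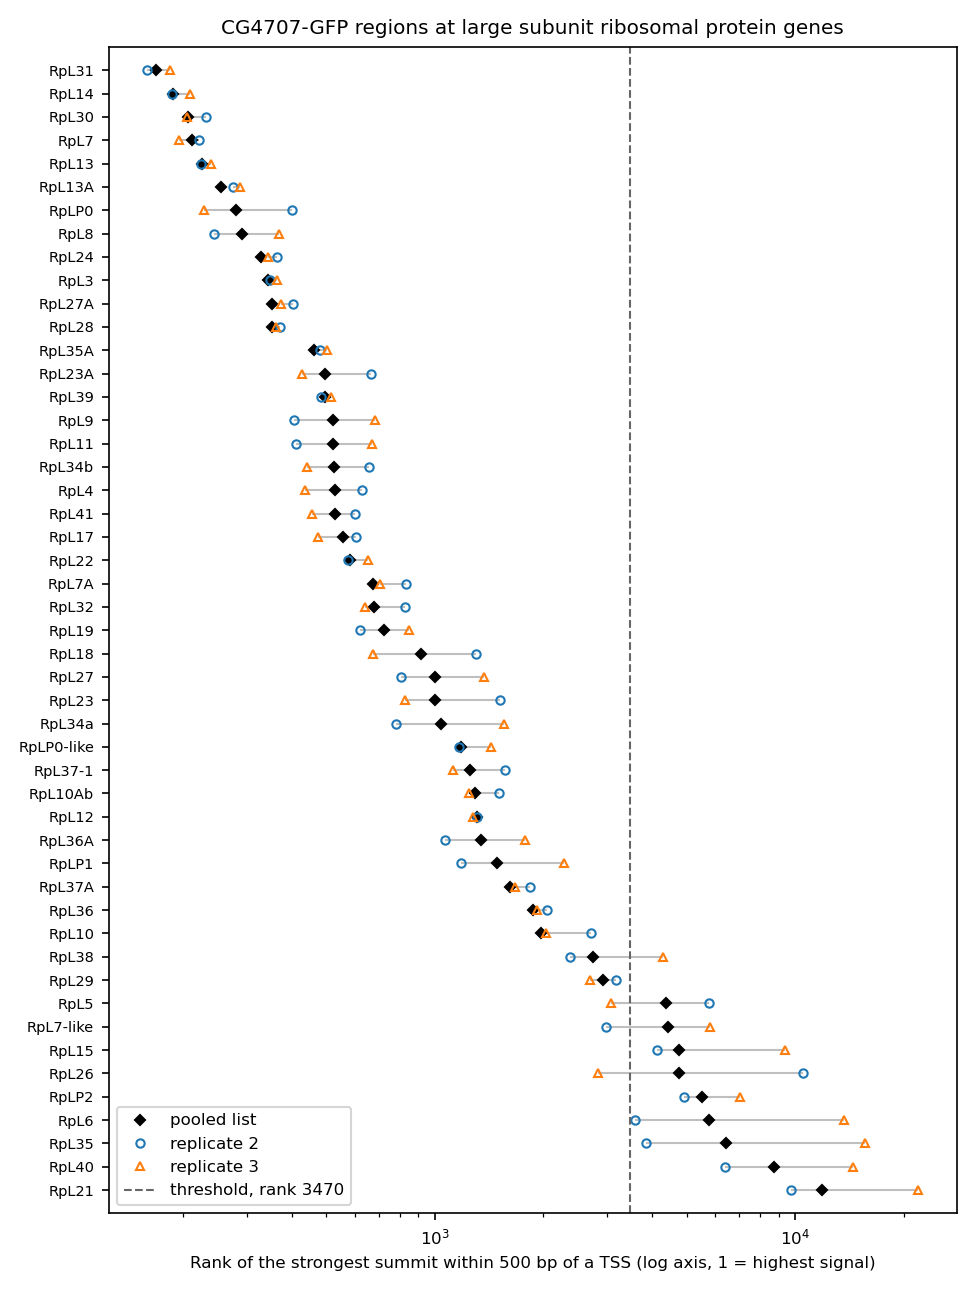
Rank of the strongest summit within 500 bp of a TSS (horizontal log axis, 1 is the highest signal) for the members with a pooled region, 1 left out, ordered by pooled rank. Diamonds are the pooled list, circles replicate 2, triangles replicate 3, and the dashed line is the threshold at rank 3470. Members from RpL31 to RpL10, and RpL29, lie left of the line in every list, while RpL38 crosses it in replicate 3.

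The strongest peak of the group was that of RpL31, a protein at the exit of the peptide tunnel, at rank 168 in the pooled list, 159 in replicate 2 and 184 in replicate 3. Its region lay on chromosome 2R from 9587076 to 9587349, with the summit at 16 bp from a TSS. RpL14 ranked 187, 186 and 209 in the pooled list, replicate 2 and replicate 3, with a region on 3L from 8600837 to 8601123. RpL30, which folds onto a kink-turn in RNA, ranked 206, 231 and 205 in the same order. RpL7 ranked 211, 222 and 195, and RpL13, which shares its peak with the gene of the transcription factor Dref, ranked 225, 224 and 239. These 5 genes held ranks under 250 in every list. RpL13A ranked 254 in the pooled list, 275 in replicate 2 and 287 in replicate 3. RpLP0, the base of the stalk, ranked 280, 401 and 228 in those lists. RpL8, a universally conserved protein that sits near the peptidyl transferase centre, ranked 291, 244 and 369. RpL24, which helps to bridge the subunits, ranked 330 in the pooled list, 364 in replicate 2 and 345 in replicate 3. None of these 9 left the first 500 regions in either replicate.

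Around the tunnel exit, 7 of 9 genes had a peak, beside 75.9% of all members. Beside RpL31 these were RpL23A at pooled rank 494 (666 in replicate 2 and 428 in replicate 3), RpL39 at 495 (484 and 516) and RpL17 at 554 (603 and 474). RpL22 stood at pooled rank 580 (573 in replicate 2 and 652 in replicate 3), and RpL19, which also forms a subunit bridge, at 720 (620 and 847). RpL38 was the weakest of the 7, at pooled rank 2742. RpL26 and RpL35, which lie beside RpL23A and RpL39 at the exit, were below the threshold. RpL26 ranked 4770 in the pooled list, 10485 in replicate 2 and 2836 in replicate 3. RpL35 ranked 6446, 3845 and 15632, and in replicate 3 its strongest summit lay 452 bp from a TSS.

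The stalk and the 5S particle each held genes with and without a peak. A peak was found at 3 of 4 stalk genes and 1 of 2 genes of the 5S particle, beside 75.9% of all members. RpLP0 had one of the strongest peaks of the group. RpL12, which sits with RpLP0 at the base of the stalk, ranked 1311 in the pooled list, 1308 in replicate 2 and 1273 in replicate 3. RpLP1 ranked 1491, 1178 and 2287. Its partner RpLP2, with which it forms the dimers of the stalk, was below the threshold at 5512, 4910 and 7049. RpL11 and RpL5 join the subunit together with 5S RNA. RpL11 ranked 521 in the pooled list, 411 in replicate 2 and 670 in replicate 3, and RpL5 ranked 4387, 5761 and 3077. In these pairs the lower partner ranked below the higher one in both replicates.

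Genes in paralog families also divided. In each of the pairs RpL10Ab and RpL10Aa, and RpL37-1 and RpL37-2, the first had a peak and the second had no region within 500 bp in the pooled or replicate lists. RpL10Ab ranked 1292 in the pooled list, 1507 in replicate 2 and 1244 in replicate 3, and RpL37-1 ranked 1249, 1561 and 1120. The nearest pooled summit lay 2463 bp from the TSS of RpL10Aa and 3259 bp from that of RpL37-2. RpL34b and RpL34a both had peaks, at ranks 524 and 1037 in the pooled list. RpL34b ranked 656 in replicate 2 and 442 in replicate 3, and RpL34a ranked 779 and 1554.

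Among the genes with "-like" symbols, RpL22-like, which is most active in the germ line, had no region within 500 bp in any list, while RpL22 had a peak. RpL24-like, whose relatives in yeast and human act in ribosome assembly and leave before the subunit matures, had only a region at rank 13401 of replicate 2. RpL7-like had a region at pooled rank 4434 (2981 in replicate 2 and 5796 in replicate 3), with its summit at -359 bp from its TSS. It lay farther from a TSS than the strongest pooled region of any other member. RpLP0-like, whose relatives likewise act in assembly, had a peak at rank 1185 (1169 and 1427) with its summit at -44 bp from its own TSS and -43 bp from that of 14-3-3zeta. Over the paralog and "-like" genes 5 of 10 had a peak, and over the 44 remaining members 36 (81.8%, exact interval 67.3 to 91.8). All 44 had at least a pooled region.

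The other members below the threshold were RpL15, RpL6, RpL40 and RpL21. RpL15 ranked 4767 in the pooled list, 4129 in replicate 2 and 9369 in replicate 3. RpL6 ranked 5773, 3587 and 13660. RpL40, which is made as a fusion with ubiquitin, ranked 8753, 6394 and 14441, and RpL21 ranked 11888, 9748 and 21997. Of the 9 members with a region below the threshold, 7 ranked lower in replicate 3 than in replicate 2, and the exceptions were RpL5 and RpL26. No share over other genes below the threshold stands beside this count, so it cannot be read as a trait of the members or of regions of low rank. Of the 9, RpL15, RpL5 and RpL21 are the only members within 2 Mb of the assembled ends of 2L and 3L that face the centromere, at 841782 bp, 976828 bp and 1265837 bp. Of all 159 genes in those stretches 7 had a peak (4.4%), a span chosen after the values had been seen. The members next nearest to such an end of any arm all had peaks. They were RpL30 on 2L at 4504406 bp, RpL38 on 2R at 4515388 bp and RpL10 on 3L at 5014756 bp. Mapping of reads in this repeat-rich sequence was not tested.

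The rest of the members with peaks ranked from 343 to 2924 in the pooled list. RpL3, near the peptidyl transferase centre, ranked 343 (349 in replicate 2 and 365 in replicate 3), and RpL4, whose loop narrows the peptide tunnel, ranked 527 (629 and 435). RpL32, long used as the rp49 reference transcript, ranked 679 (825 and 638), and RpL41, with the shortest of the peptides, 529 (599 and 457). RpL10, which joins late and faces the tRNA sites, was lower at 1972 (2708 in replicate 2 and 2031 in replicate 3), and RpL29 was last at 2924 (3181 and 2696). Between them stood RpL27A, RpL28, RpL35A, RpL9, RpL7A, RpL18, RpL27, RpL23, RpL36A, RpL37A and RpL36, at pooled ranks of 353 to 1871.

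The peaks sat on the start site itself. Summits of the 41 members lay between -72 and 48 bp of the nearest TSS, with a median of -7 bp (negative is upstream), 25 of 41 (61.0%) lay upstream, and 39 of 41 (95.1%) lay within 50 bp. Over 1634 other protein-coding genes with a peak the median was -115.5 bp, 76.7% lay upstream, and 342 (20.9%) were within 50 bp. The exceptions among the members were RpL34b at -72 bp and RpL23A at -60 bp. Of the 90 peaks that both ranked in the first 1000 and had a summit within 50 bp of a TSS, 26 (28.9%) were those of large subunit genes and 14 those of small subunit genes. Of the 9 members with a region below the threshold, 6 also had the summit within 50 bp, and RpL26, RpL40 and RpL7-like did not.

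**Figure D3:**
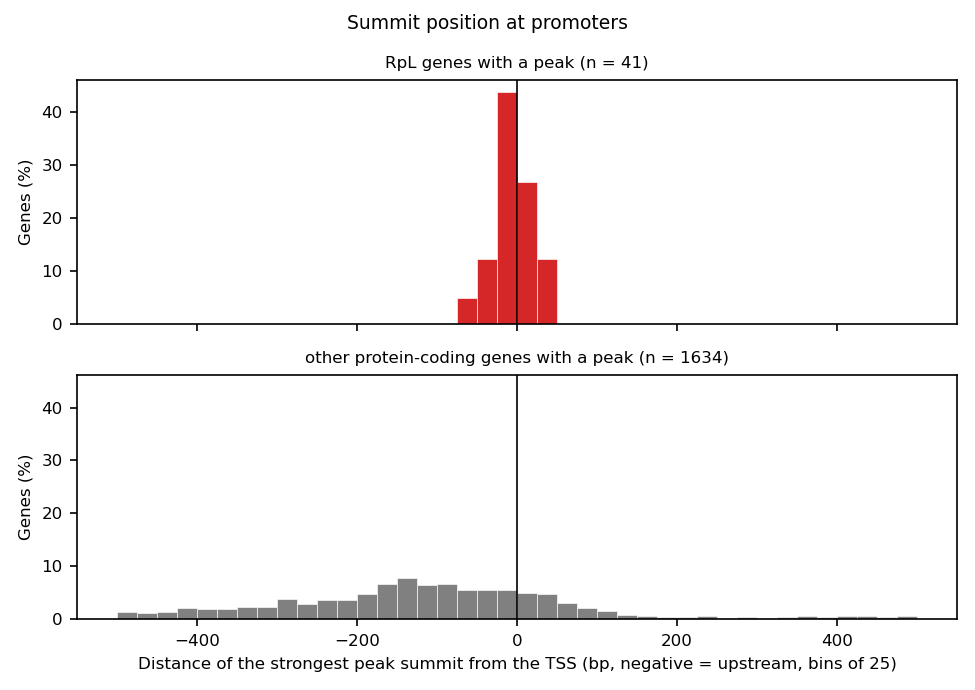
Distance of the strongest peak summit from the nearest annotated TSS in bp (horizontal axis, bins of 25 bp, negative is upstream) against percent of genes, for the 41 large subunit genes with a peak (top) and 1634 other protein-coding genes with a peak (bottom). The large subunit genes fill the bins from -75 to 50 bp, while the other genes spread upstream around a median of -115.5 bp.

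Several members are annotated with more than 1 TSS, and their start letters differed between these sites. At the canonical TSS, start letters lay within 5 bp at 23 of 54 members (42.6%), against 1.68% of 13944 protein-coding promoters, and at 17 of 38 small subunit genes (44.7%). A run of at least 8 pyrimidines from 10 bp before to 19 bp after the TSS was found at 36 members (66.7%), against 4.92% of protein-coding promoters. For 14 of the 41 members with a peak, the TSS nearest the summit was not the canonical one (34.1%), against 26.2% of 1609 protein-coding genes with a peak outside both ribosomal groups. Start letters stood at 2 of these 14 canonical sites and at 9 of the 14 sites nearest the summit. Over the 19 members with several TSSs and a peak, start letters stood at 13 of 19 sites nearest the summit and at 4 of their 30 other sites. This comparison was chosen after the sequences had been seen, and it was not tested.

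RpLP0 and RpL18 are examples in which both replicates had the pooled site as the nearest, so both of their sites are printed as 30 bases, 10 before the TSS, the TSS base and 19 after it, with capitals as above and the site nearest the summit second.
RpLP0 canonical (chr3L:22075857-22075886, plus strand): aagcactgttagttaacagaagagattctg
RpLP0 nearest the summit (chr3L:22076082-22076111, plus strand): ccgccaacttcactCTTTCCgttctgtgag
RpL18 canonical (chr3L:7241300-7241329, minus strand): ttccggcgaggtacgtgcaagaaattgatg
RpL18 nearest the summit (chr3L:7241332-7241361, minus strand): agccacactattttCTTTCTtttggctttc
The RpLP0 summit lay 211 bp after the canonical TSS and at -14 bp from the site 225 bp downstream of it. The RpL18 summit lay at -47 bp from the canonical TSS and at -15 bp from a site upstream of it. RpL34b, RpL7A, RpL32, RpL37A, RpL7 and RpL19 likewise had start letters at the site nearest the pooled summit and none at the canonical one. In 9 of the 14 members both replicates had the same nearest site as the pooled list. In the other 5, RpL31, RpL7, RpL13, RpL19 and RpL12, at least 1 replicate had another site. At RpL7 the pooled summit lay at -43 bp from the pyrimidine site and 53 bp after the canonical TSS, while in replicate 3 the canonical TSS was the nearest, at 43 bp. At RpL13 and RpL27A the letters stood at another TSS than the nearest, at RpL28 at both the nearest site and a neighbouring one, and at RpL7A also at a more distant site, from which the summit lay at -702 bp.

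**Figure D4:**
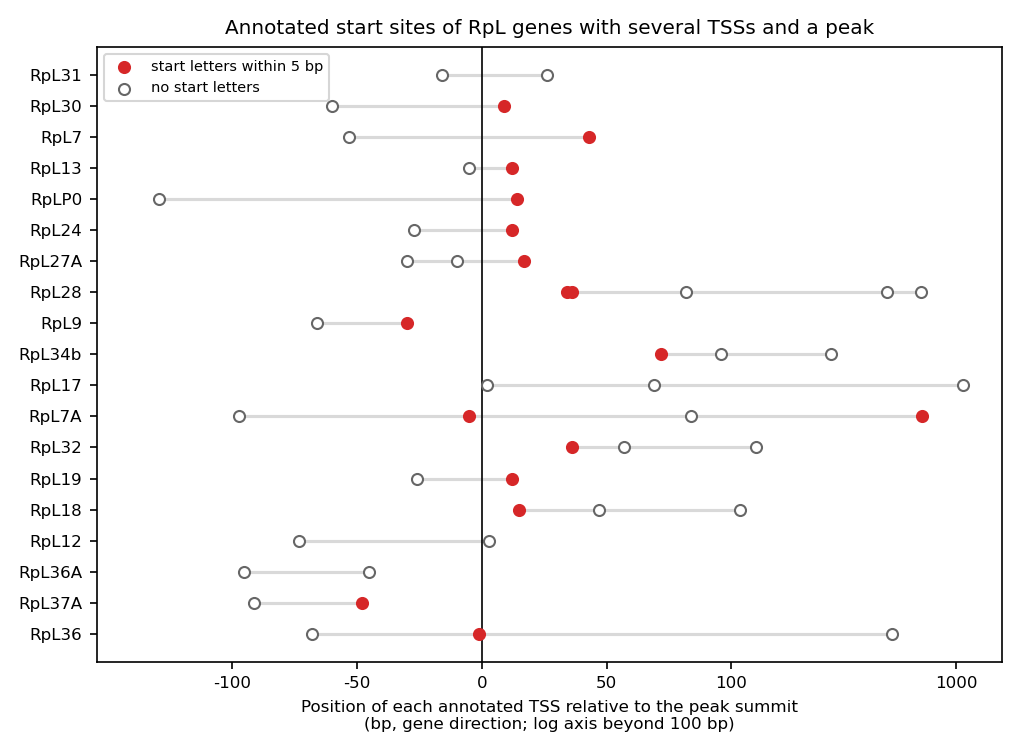
Position of each annotated TSS relative to the peak summit (horizontal axis in bp along the gene, log scale beyond 100 bp) for the 19 members with several TSSs and a peak. Filled points have start letters within 5 bp and open points have none, and 13 of the 19 sites nearest the summit are filled, against 4 of the 30 others.

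Start letters did not divide the members with a peak from those without. They stood at the canonical TSS of 18 of 41 members with a peak and 5 of 13 without, and the pyrimidine run at 26 and 10. The 5 were RpL21, RpL40, RpL35 and RpL7-like, with regions below the threshold, and RpL37-2, with none. Outside the ribosomal protein genes, 194 protein-coding genes had start letters, and 27 of them had a peak (13.9%, exact interval 9.38 to 19.6), against 11.6% of the 13658 without them (interval 11.1 to 12.1). Of the 18 members with start letters and a peak, 17 had the summit within 50 bp of a TSS, against 7 of those 27 other genes. Without start letters it was 22 of 23 members with a peak, against 312 of 1582 other genes with a peak. These counts cannot compare summit position by start letters, since nearly all members with a peak had the summit within 50 bp. The letters were also counted at the canonical TSS, while the summit was measured to the nearest TSS. Some of the 23, such as RpLP0 and RpL18, had start letters at that nearest site.

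Other promoter letters were searched on both strands from 250 bp before the canonical TSS over the 50 bp that begin with it. TATCGATA, the site of Dref (DRE), was in 15 members (27.8%) and 8.94% of protein-coding promoters. GGTCACAC, the core of Motif 1 to which M1BP binds, was in 9 (16.7%) and 7.54%. GAGAG was in 12 (22.2%) and 30.2%, and the E-box CAGCTG in 3 (5.56%) and 17.9%. Among small subunit genes DRE was in 34.2% and the Motif 1 core in 10.5%. Among genes of ribosome assembly and RNA polymerase I they were in 18.8% and 21.9%. DRE was in 11 of 41 members with a peak and 4 of 13 without, and the Motif 1 core in 7 and 2. CACACT, which shares letters with the end of the Motif 1 consensus and was added after the sequences had been read, was in 23 members (42.6%) and 20.8% of protein-coding promoters. It was also in 31.6% of small subunit and 46.9% of assembly promoters, so it is not particular to the members. Its 25 sites in these members lay at offsets from -231 to 36 from the canonical TSS. Of the 7 members with both CACACT and the Motif 1 core, 6 had overlapping sites, and at RpL22-like the sites lay apart. ACAGTG was in 11 members (20.4%) and 13.9% of protein-coding promoters, and in 21.1% of small subunit and 15.6% of assembly promoters.

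A 6-mer found at other CG4707-GFP peaks was counted at these summits, with no test of the difference. ACAGTG, found in an earlier search of these same peaks, lay within 100 bp of the summit on either strand at 4 of 41 members (9.76%, exact interval 2.72 to 23.1). It was at 4 of 25 small subunit peaks (16.0%, interval 4.54 to 36.1), at 26.0% of 1503 other promoter peaks (interval 23.8 to 28.3) and at 27.4% of 1901 peaks away from promoters. Pooled regions below the threshold had it in 11.8% of cases. Members with it included RpL31, RpL23A and RpL34b. Among peaks of rank up to 1000 it was at 4 of 28 member peaks (14.3%, interval 4.03 to 32.7), against 36.6% of 453 other promoter peaks (interval 32.2 to 41.3). With the summit also within 50 bp of a TSS, the other promoter peaks had it at 16 of 50 (32.0%, interval 19.5 to 46.7). This overlaps the interval of the 28 member peaks, but those were not limited by position. Of the members with the 6-mer, RpL23A and RpL34b had summits at -60 and -72 bp from the TSS. CACACT lay within 100 bp of the summit at 17 of 41 member peaks (41.5%, interval 26.3 to 57.9), at 7 of 25 small subunit peaks (interval 12.1 to 49.4) and at 17.7% of other promoter peaks (interval 15.8 to 19.7). Among peaks of rank up to 1000 it was at 12 of 28 member peaks (42.9%, interval 24.5 to 62.8). The other promoter peaks with the summit within 50 bp of a TSS had it at 13 of 50 (26.0%, interval 14.6 to 40.3). These intervals overlap, but again only the other peaks were limited by position.

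**Figure D5:**
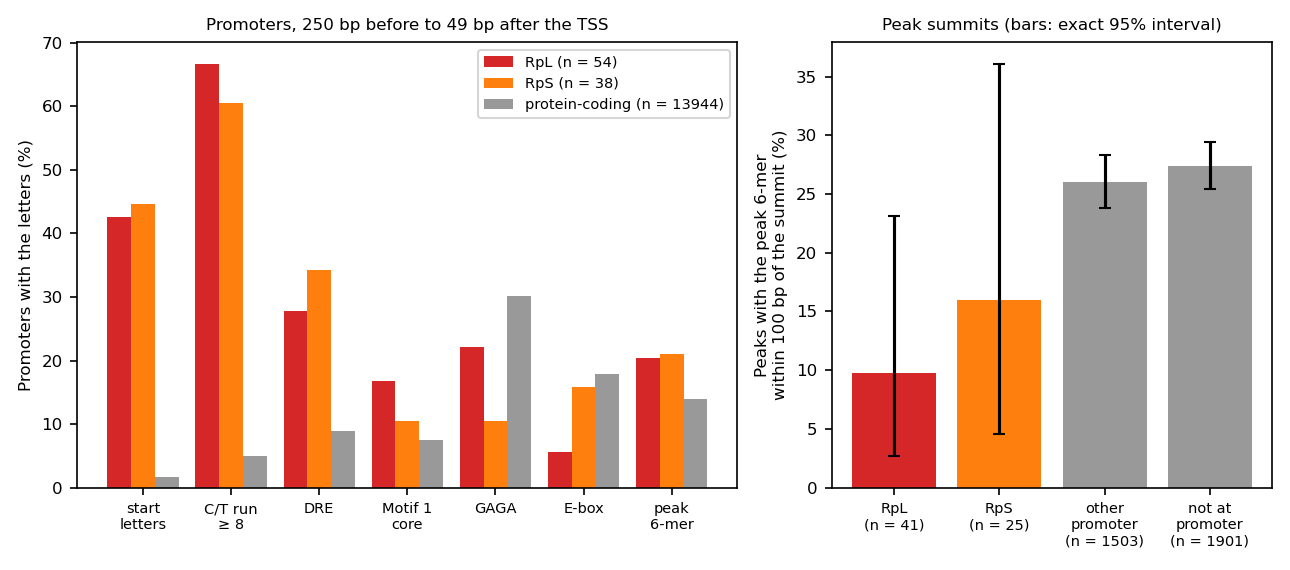
Left, percent of promoters that hold each set of letters in large subunit, small subunit and all protein-coding genes (the start letters and the run of at least 8 pyrimidines are counted only at the TSS). Right, percent of peaks with the peak 6-mer within 100 bp of the summit, with exact 95% intervals. Start letters stand at 42.6% of large subunit genes and 1.68% of protein-coding promoters. The peak 6-mer stands at 9.76% of large subunit peaks and 26.0% of other promoter peaks. It was found in an earlier search of these same peaks, and the peaks shown were not matched for rank or summit position.

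Peaks were shared with neighbours at members and at other genes. At 20 of the 41 (48.8%, exact interval 32.9 to 64.9), the summit also lay within 500 bp of the TSS of another protein-coding gene, against 44.0% of 1634 other protein-coding genes with a peak. These 20 made 21 gene pairs, and in 20 of them it was closer to the large subunit gene. The exception was RpLP0-like with 14-3-3zeta. The RpL28 summit lay at -347 bp from the TSS of eIF1, a translation initiation factor. The RpL14 summit lay at -125 bp from the TSS of Nelf-E, a subunit of a polymerase pausing factor, and the RpL36 summit at -358 bp from that of Mybbp1A. A protein-coding gene started head to head within 500 bp upstream of 19 of 41 members with a peak (46.3%, interval 30.7 to 62.6), against 37.7% of other protein-coding genes with a peak. It did so at 2 of 13 members without a peak (15.4%), against 23.7% of other protein-coding genes without one. Small nucleolar RNA genes, which guide modification of ribosomal RNA, lay inside 14 of the 41 (34.1%, interval 20.1 to 50.6), against 1.77% of other protein-coding genes with a peak, and inside 2 of the 13, against 0.416% of those without. The members without introns in the canonical transcript, RpLP2, RpL10Aa and RpL37-2, were all among those without a peak, and the 41 had from 1 to 6 introns. Among other protein-coding genes, 6.79% of those with a peak and 17.4% of those without had no intron. Median gene length was 1361 bp with a peak and 1147 bp without.

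Peaks at other genes of the same pathway were compared by the same rule. Beside the 41 of 54 large subunit genes with a median rank of 529, 25 of 38 small subunit genes (symbols starting with RpS) had a peak (65.8%, exact interval 48.6 to 80.4), with a median rank of 733. The intervals of the shares overlap. Summits at the small subunit genes lay at a median of 2 bp from the TSS, with 23 of 25 within 50 bp. Mitochondrial ribosomal protein genes had peaks at 8 of 47 for the large subunit (17.0%, interval 7.65 to 30.8) and 4 of 26 for the small subunit (15.4%, interval 4.36 to 34.9). The median summit of each lay upstream, at -136 and -146.5 bp, with 1 and 0 within 50 bp. In the mitochondrial large subunit group, summits at 48 and 74 bp lay downstream. Of 32 genes of ribosome assembly and RNA polymerase I, 4 had a peak (12.5%, interval 3.51 to 29.0). The 4 were eIF6, which keeps the subunits apart, at rank 246, Ns2, a nucleolar GTPase, at 295, NHP2, a small nucleolar RNP protein, at 723, and Nopp140, a nucleolar chaperone, at 2914. Their summits lay at -104, -164, -185 and -44 bp from the TSS.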

How the data were processed

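The 2 biological replicates of 1 ChIP-seq group were used. The authors made a region list from the alignments of each replicate and 1 from both together, each with a further file that also enters their control-normalized signal, and thresholded them by irreproducible discovery rate, per the deposited file listing. Per the labels, coordinates are on dm6. The aligner and the peak caller: not given in the sources used here. The deposited signal score has no stated unit, so only ranks were compared between lists. The deposited −log10 q-value, 3.88 for every peak, served only to check the lists, and the 3470 peaks equal the 3470 pooled regions of highest score. Fragments were 200 to 800 bp, per the labels.

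Summits were set against every TSS of Ensembl release 115, and sequence was read from the Release 6 genome. A gene's summit is the strongest in its window, measured to its nearest TSS, although the plan spoke of the nearest summit. No set test was run. Exact Clopper-Pearson 95% intervals cover counting error only and treat genes as independent. Members, lists and letters were chosen with earlier results of these data known. Of 38 assembly symbols, 32 are in the annotation. The values of 1 member are not reported here, though the counts include it. Named genes are the other members, neighbours that share their peaks and assembly genes with a peak. On simulated summits at genes with a single TSS, 200 of 200 were placed correctly. The choice among several TSSs or several regions was not simulated. Alternatives were other windows (250 or 1000 bp), the most upstream TSS, a stricter threshold, overlap of regions and each replicate alone. Versions were Python 3.11.15, with scipy 1.17.1, pandas 2.3.3, numpy 2.4.6, and for figures matplotlib 3.10.9.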

Additional observations from a re-analysis of the deposited data

How the results depend on the processing

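The count of large subunit genes with a peak was 41 and stayed between 37, with the higher-signal 1735 peaks alone, and 42 over all alternatives tried. Without replicate 2 and without replicate 3 it was 42 each. The counts of small subunit, mitochondrial and assembly genes stayed within 1.5 times their values. The share of all genes fell to 5.56% with the stricter threshold, against 10.5% in the whole list, by construction, since only the higher-signal peaks are kept. The median summit distance was -7 bp, and was -8 bp at 1000 bp, -9 bp with the stricter threshold, 5 bp with the most upstream TSS alone, and -7 to -6 bp with a replicate left out. The median rank was 529 in the pooled list and 624.5 to 645 with a replicate left out. Start letters were within 5 bp of the canonical TSS at 18 members with a peak, exactly at it at 0, at 16 with the most upstream TSS and at 25 with the TSS nearest the summit, a setting chosen after the data were seen. ACAGTG was in 11 member promoters and within 100 bp of the strongest pooled summit at 4. The cause of these differences was not tested. No paired analysis was possible because the series holds 1 group. The depth behind each region is unknown, so a member below the threshold is not shown to lack the protein.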
